A study of Mus musculus with 6 samples.

Results

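Tbx4, Miip, Nkx2-6, Tcf21, Nmur2, Lhx9 and Smad1 are 7 mouse genes at which advanced pluripotent stem cells (ASCs) carried more DNA methylation than epiblast stem cells (EpiSCs), against the direction of most of the genome. They were chosen from 53843 annotated genes on chromosomes 1 to 19 and X, of which 23691 had a promoter with enough reads to be tested. For 6 of them the choice rested on the promoter, where the mean level in ASCs exceeded that in EpiSCs by between 38.3 and 43.7 percentage points, the largest differences of this sign among the 14457 protein-coding promoters tested. Smad1 was chosen for a 2 kb tile in an intron, and Lhx9 also for a 2 kb tile that was lower in EpiSCs than in embryonic stem cells (ESCs). Values of ASCs against EpiSCs are therefore given at these genes as a description, with no test. Levels against ESCs at the 6 promoters and at these tiles reuse reads that served the choice, so they carry no p-values.

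The assay was bisulfite sequencing of the whole genome, which reads unmethylated cytosines as thymine, in 3 groups of 2 libraries each. ASCs were obtained by the study from blastocyst-derived cells moved into a defined medium with Activin A, BMP4, the Wnt pathway agonist CHIR99021 and LIF. ESCs were kept in 2i/LIF, a medium that holds cells in a naive state with little DNA methylation, and EpiSCs are primed cells like the epiblast after implantation. All libraries are labelled as wild type and with the strain 129S2/SvPasCrl. The study described the lines as female and the 2 libraries of a group as biological replicates, and the labels do not say whether replicates are separate lines or cultures. The study derived its ASC lines from colonies of mice with reporter transgenes and a mixed background, so the genotype and strain of the sequenced lines rest on the labels alone. The assay reads DNA only, so cell identity could not be checked against expressed markers.

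DNA methylation in mammals sits mostly on cytosines of CpG dinucleotides, and a promoter that carries much of it is usually silent. CpG-rich promoters as a rule stay free of methylation. Genes for developmental regulators often lie in broad unmethylated stretches, sometimes called valleys or canyons, which are held by Polycomb complexes while the genes are off. Tbx4 encodes a T-box factor of hindlimb and lung development, Nkx2-6 an NK homeobox factor of pharynx and heart, Tcf21 a basic helix-loop-helix (bHLH) factor of visceral mesoderm and epicardium, and Lhx9 a LIM homeobox factor of gonad and limb. Smad1 transmits bone morphogenetic protein (BMP) signals to the nucleus. Miip encodes an inhibitor of cell migration and Nmur2 a receptor of the neuropeptide neuromedin U, so the label of developmental genes covers only some of the 7.

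The 6 libraries held between 63803799 and 74925271 CpG reads, or 2.96 to 3.46 reads on average for a listed site. Reads were summed over regions, and each read of a CpG counts as 1 observation. The level of a region is its methylated observations as a percentage of all its observations. Over all 2 kb tiles tested, the median level was 68.8% and 69.0% for ASCs, 19.4% and 19.7% for ESCs and 92.1% for both EpiSC libraries. A region was tested with at least 40 observations in every library and called at an adjusted p under 0.05 and a difference of at least 20 points (limma-moderated quasi-binomial test, two-sided, Benjamini-Hochberg over all regions of the kind). A promoter runs from 1000 bp before to 100 bp after 1 annotated start per gene.

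Short stretches of 2 loci show where along the DNA the levels differed. The intronic sequences come from the windows of 500 bp with the largest difference between ASCs and EpiSCs among those with at least 20 observations in every library, and the exonic one from the window with the most CpG sites in Tbx4. Letters are the plus strand of GRCm38, 5′ to 3′, and capitals mark CpG sites.

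Tbx4, intron, chr11:85894001-85894200: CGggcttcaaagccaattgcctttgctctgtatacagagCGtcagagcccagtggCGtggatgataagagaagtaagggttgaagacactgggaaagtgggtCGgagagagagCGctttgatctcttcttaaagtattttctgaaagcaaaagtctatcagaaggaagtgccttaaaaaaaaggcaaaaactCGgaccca
Tbx4, coding exon, chr11:85890063-85890262: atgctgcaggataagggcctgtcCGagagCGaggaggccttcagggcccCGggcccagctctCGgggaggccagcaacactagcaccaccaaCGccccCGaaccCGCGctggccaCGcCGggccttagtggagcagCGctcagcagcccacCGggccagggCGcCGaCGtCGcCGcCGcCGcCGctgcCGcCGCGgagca
Nkx2-6, intron, chr14:69173796-69173995: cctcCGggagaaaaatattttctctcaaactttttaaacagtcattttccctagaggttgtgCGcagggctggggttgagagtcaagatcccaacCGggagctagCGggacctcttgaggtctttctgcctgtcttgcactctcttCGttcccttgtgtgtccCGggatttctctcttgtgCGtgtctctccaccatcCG

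The intronic stretch of Tbx4 holds 6 CpG sites and the exonic stretch 23. The intronic stretch read 64.3% and 61.9% in the ASC libraries, and 29.4% and 7.89% for ESCs. It was 0% in both EpiSC libraries, where 21 and 26 observations allow up to 14.3% and 11.5%. The CpG-rich exonic stretch stayed low in every group, with 8.84% and 12.7% in ASCs, against 3.70% and 9.33% in ESCs and 0.543% and 2.16% in EpiSCs. The intronic stretch of Nkx2-6, with 8 CpG sites, read 69.6% and 66.7% in ASCs, against 21.3% and 22.9% in ESCs and 8.33% and 12.5% in EpiSCs.

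The Tbx4 promoter (chromosome 11, 85889063 to 85890163) stood at 48.2% and 57.9% in the ASC libraries, against 16.4% and 17.2% for ESCs and 8.24% and 10.4% for EpiSCs, from between 95 and 170 observations. The 3 groups did not overlap, with ASCs highest and EpiSCs lowest. The ASC mean of 53.0% ± 6.85 (SD, n = 2) exceeded that of ESCs by 36.2 points, and EpiSCs differed from ESCs by -7.51 points. This window ends just inside the coding start of 1 transcript and lies within an intron of a longer one that begins at 85886422, the start that a choice by transcript length would take. At that upstream start the levels were 47.9% and 49.5% in ASCs, against 24.2% and 18.9% in ESCs and 33.8% and 42.5% in EpiSCs, so the gap between ASCs and EpiSCs narrowed to 10.6 points there. The third annotated start, at 85896765 was higher in EpiSCs, with 71.0% and 68.2%, than in ASCs, with 45.8% and 56.4%, from as few as 22 observations.

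The promoter of Nkx2-6 (chromosome 14, 69170802 to 69171902) had the closest ASC replicates, at 56.3% and 57.3%. The ESC libraries read 12.8% and 10.1%, and those of EpiSCs 13.7% and 16.1%, from between 56 and 109 observations. ASCs stood alone, while ESCs and EpiSCs were near each other, with EpiSCs 3.41 points above ESCs. The ASC mean of 56.8% ± 0.679 (SD, n = 2) exceeded that of ESCs by 45.3 points.

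The promoter of Tcf21 (chromosome 10, 22820074 to 22821174) read 44.9% and 54.5% in ASCs, against 7.89% and 20.5% in ESCs and 6.58% and 11.7% in EpiSCs, from between 55 and 77 observations. The ranges of ESCs and EpiSCs overlapped and the ASC libraries lay above both. The ASC mean was 49.7% ± 6.80 (SD, n = 2), and its difference from ESCs 35.5 points. EpiSCs minus ESCs came to -5.09 points.

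The promoter of Lhx9 (chromosome 1, 138842357 to 138843457) was methylated in ESCs as well. The ASC libraries read 49.3% and 31.7%, those of ESCs 24.1% and 48.8%, and those of EpiSCs 2.0% and 2.33%, from between 43 and 100 observations. ASCs and ESCs overlapped. Their difference of 4.03 points turned to -4.78 points without ASC replicate 1 and -8.37 points without ESC replicate 1. The ESC libraries were far apart, with 95% Wilson intervals from 16.0% to 34.5% and from 38.6% to 59.2%. These and other intervals cover counting error only. EpiSCs were 34.3 points below ESCs, and 21.9 points below without ESC replicate 2. The tile of this contrast that served to choose the gene covers the whole promoter window, so the difference is a description with no test. At the 3 starts of Lhx9 farthest upstream, 138847579, 138847719 and 138848577, all 6 libraries were nearly free of methylation, with a highest level of 3.23%, and EpiSCs minus ESCs was -1.86 points at the farthest. A downstream start at 138833659 had too few reads to compare, with as few as 7 observations.

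The promoter of Miip (chromosome 4, 147868619 to 147869719) had the most observations of the 7, between 173 and 247 a library. The ASC libraries read 33.8% and 59.0%, those of ESCs 18.6% and 23.3%, and those of EpiSCs 3.89% and 3.47%. The ASC replicates were far apart, with Wilson intervals from 27.8% to 40.4% and from 52.1% to 65.6%, and both lay above ESCs. The ASC mean was 46.4% ± 17.8 (SD, n = 2), and its excess over ESCs 25.4 points. It dropped to 12.8 points without ASC replicate 2 and was 23.1 points without ESC replicate 1. The call for ASCs above ESCs was lost in both these fits and without either EpiSC replicate. In such fits the lone library is assumed to vary like the other groups. EpiSCs were 17.3 points below ESCs, short of the 20 points a call needed. The window is shared with Fv1, a retroviral restriction gene that starts at 147868979 on the other strand. The promoter window of Fv1 read 20.9% and 39.6% in ASCs, against 11.7% and 13.2% in ESCs and 1.25% and 0% in EpiSCs, so the 2 genes cannot be told apart here. Another annotated gene also overlaps each of the 2 kb tiles that hold the starts of Nkx2-6, Tcf21 and Nmur2.

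The promoter of Nmur2 (chromosome 11, 56040910 to 56042010) read 38.8% and 70.3% in the ASC libraries, against 7.84% and 3.03% for ESCs and 13.8% and 14.9% for EpiSCs, from between 47 and 67 observations. Its ASC replicates were the widest apart of the 7, with Wilson intervals from 28.0% to 50.8% and from 58.2% to 80.1%. Without ASC replicate 2 the excess over EpiSCs, for which the gene was chosen, was 24.5 points instead of 40.2. The ASC mean of 54.6% ± 22.3 (SD, n = 2) exceeded that of ESCs by 49.1 points, and EpiSCs minus ESCs was 8.91 points. In a window reaching 500 bp to either side of the start, EpiSCs rose above ESCs by 40.3 points, and the excess of ASCs over EpiSCs shrank to 13.5 points. These are given with no test, because the window overlaps the one that chose the gene. The low EpiSC level at Nmur2 therefore depended on where the window was placed.

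The promoter of Smad1 (chromosome 8, 79399418 to 79400518) was nearly unmethylated everywhere. The ASC libraries read 2.35% and 6.09%, those of ESCs 2.24% and 1.08%, and those of EpiSCs 4.76% and 4.96%, from between 85 and 186 observations. ASCs exceeded ESCs by 2.56 points (adjusted p = 0.166) and EpiSCs exceeded them by 3.20 points (adjusted p = 0.0706). Its place among the 7 rests on the intron tile from 79384001 to 79386000, 14.52 kb into the gene, which ranked 3 of 445422 tiles by the difference between ASCs and EpiSCs. It read 69.3% and 74.3% in ASCs, against 19.6% and 12.4% in ESCs and 8.45% and 8.73% in EpiSCs, from between 126 and 153 observations. That tile was 55.8 points higher in ASCs than in ESCs and 7.42 points lower in EpiSCs than in ESCs, given with no test because the tile was picked for its ASC and EpiSC levels.

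**Figure D1:**
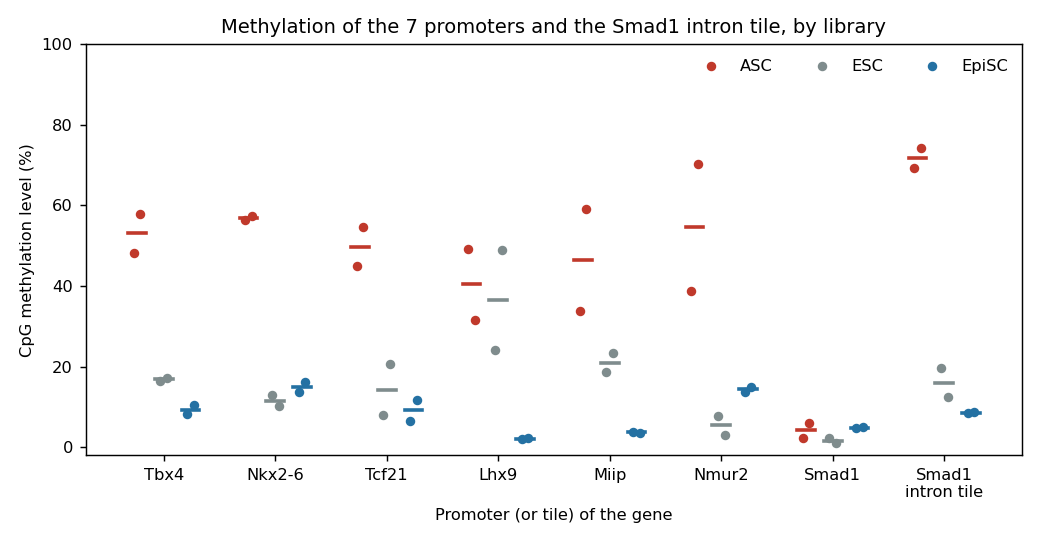
CpG methylation level (%) of each promoter, and of the Smad1 intron tile, in every library. Points are libraries and bars the means of 2 libraries per group. The ASC points lie above both other groups at Tbx4, Nkx2-6, Tcf21, Miip and Nmur2, overlap ESCs at Lhx9, and are as low as the others at the Smad1 promoter.

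Together, 5 of the 7 promoters had a call for ASCs above ESCs, as did 35.2% of all promoters tested. The median difference was 35.5 points over the 7 and 6.85 points over all promoters tested. This contrast shares the ASC libraries with the one that chose the genes. With the window moved to 500 bp on either side of the start, Tbx4 (14.2 points), Miip (16.9) and Tcf21 (19.7) fell short of the 20 points. None of the 7 was called lower in ASCs than in ESCs by the quasi-binomial test, with 0 at an unadjusted p under 0.05 and 0 calls by limma on M values or Fisher's exact test. A call needs a drop of 20 points, and the median ESC level of the 7 was 14.2%. As 6 of the promoters were also chosen for high ASC levels, nothing is read from this. None of the 7 was called higher in EpiSCs than in ESCs, where 52.9% of all promoters were. Higher in EpiSCs at an unadjusted p under 0.05 were 0 by this test, 1 by limma on M values and 2 by Fisher's exact test, and neither of the latter made a call at 20 points. Lhx9 passed the threshold in the lower direction, in reads that had served to choose it. It was itself the only 1 of the 23691 promoters tested to do so (0.00422%). The median of EpiSCs minus ESCs was -5.09 points over the 7 and 23.9 points over all promoters. Low EpiSC levels were part of the choice too, so the counts involving EpiSCs are also a description and no independent evidence.

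The 6 promoters held ranks 1 to 6 of the 14457 protein-coding promoters tested. Among promoters of all gene types the ranking had no clear edge. Lhx9, the last inside, stood at 38.3 points and rank 11 of 23691. Just outside came Plut, an antisense RNA gene, at 37.9 points, the lincRNA gene Gm10637 at 35.0 points and the antisense gene Dlx1as at 34.8 points. These are noncoding genes, so the next protein-coding promoter lay no higher than 34.8 points. Noncoding genes with larger differences than Lhx9 were Gm32335 (55.3 points), Gm27477 (54.7), Gm27868 (48.0), Gm28196 (40.6) and Gm38534 (39.6). 

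The promoters most like the 7 in their levels were those of Bhlhe22, Hoxd3, Gnb3, Pnpt1 and Abcc9. Likeness was the root mean square difference over the 6 libraries from the median levels of the 7, among protein-coding promoters. Bhlhe22, a bHLH factor of the nervous system, differed by 6.80 points, with means of 45.2% (ASCs), 20.2% (ESCs) and 11% (EpiSCs). Hoxd3, a homeobox factor of body patterning, differed by 7.51 points, with means of 47.5%, 22.6% and 15.0%. The other 3, none of them a transcription factor gene, differed by between 9.54 and 10.6 points.

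The 7 promoters held between 10 CpG sites (Nmur2) and 34 (Smad1), with a median of 27 against 32 over all promoters tested. The observed to expected CpG ratio had a median of 0.396 against 0.473, and the GC content 48.0% against 51.3%. Nmur2 was the sparsest, since 0.688% of promoters had fewer CpG sites, and repeat-masked bases made up 29.3% of its window. In the promoters of Tbx4, Miip and Nkx2-6 repeats made up 2.0%, 2.09% and 3.91%, below the median of 12.8%.

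Beyond the promoters, the level was followed in windows of 500 bp from 10 kb before to 10 kb after each gene. The windows under 50% in EpiSCs that adjoin the start, skipping windows with fewer than 10 observations in any library, are called the low stretch of the gene. The low stretch of Lhx9 was the longest at 13000 bp, followed by Tcf21 at 12000 bp, Tbx4 at 10000 bp and Nkx2-6 at 5500 bp. Those of Miip and Nmur2 were short, at 2000 bp and 500 bp. In Smad1, where the stretch was taken around the intron tile, it ran over 4000 bp from 79382501 to 79386500 and held 68 CpG sites. Each stretch was cut at its outermost windows with a value, so the lengths and their order also depend on depth. At Nkx2-6 the tile from 69168001 to 69170000, upstream of the stretch, read 16.7% in both EpiSC libraries, from 18 and 24 observations.

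Over its whole low stretch (chromosome 11, 85886001 to 85896000) Tbx4 read 22.7% and 24.7% in ASCs, against 9.16% and 9.32% in ESCs and 5.90% and 6.07% in EpiSCs. Nkx2-6 (chromosome 14, 69170501 to 69176000) read 33.3% and 30.5% in ASCs, against 7.22% and 8.39% in ESCs and 7.02% and 6.39% in EpiSCs. In both genes the replicates lay within 3 points and ASCs stood well apart from the other groups.

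Tcf21 (chromosome 10, 22811501 to 22823500) read 39.2% and 33.6% in ASCs, against 15.0% and 11.9% in ESCs and 8.88% and 9.63% in EpiSCs. Lhx9 (chromosome 1, 138837001 to 138850000) read 27.6% and 31.3% in ASCs, against 17.9% and 19.2% in ESCs and 5.74% and 7.05% in EpiSCs. ESC levels were thus above those of EpiSCs in both. Windows with a value that were higher in ESCs than in EpiSCs numbered 18 of 21 at Lhx9 and 9 of 15 at Tcf21. They numbered 12 of 16 at Tbx4, 6 of 8 at Smad1 and 3 of 4 at Miip. At Nkx2-6 they were 4 of 9 and at Nmur2 0 of 1. The stretches were bounded by low EpiSC levels, so these counts are a description and nothing is read from them. Over the wider stretch of Lhx9 the ASC libraries lay above the ESC libraries, while over the promoter window they overlapped.

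The Smad1 stretch had the highest mean level in ASCs, from 58.1% and 64.9% in the libraries, with 14.1% and 12.4% in ESCs and 7.28% and 8.44% in EpiSCs. Miip (chromosome 4, 147867501 to 147869500) read 21.9% and 41.6% in ASCs, against 13.8% and 16.0% in ESCs and 2.34% and 1.24% in EpiSCs. Nmur2 (chromosome 11, 56041001 to 56041500) read 37.7% and 68.5% in ASCs, against 7.89% and 1.75% in ESCs and 10.9% and 10% in EpiSCs, from as few as 38 observations. ASC replicate 2 was the higher of the ASC libraries in 5 of the 7 stretches, and the lower at Nkx2-6 and Tcf21. Over the promoters it was the higher at 6 of 7, with a median of 57.3% against 44.9% in ASC replicate 1.

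The sequences from the EpiSC dips at Smad1 and Nmur2 are shown because these 2 loci differ from the broad stretches. At Nmur2 the window of the dip averaged 53.1% in ASCs, below the median of 69.3% over the windows of its locus. At Smad1 the 8 windows of the dip averaged between 36.9% and 83.9% in ASCs, 5 of them below the median of 76.1% over its locus. The first is the most CpG-rich run of 200 bases in the Smad1 window with the largest difference (82.7% in ASCs), and the second the run just before the Nmur2 start. Both are the plus strand of GRCm38 with CpG sites in capitals.

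Smad1, intron, chr8:79384610-79384809: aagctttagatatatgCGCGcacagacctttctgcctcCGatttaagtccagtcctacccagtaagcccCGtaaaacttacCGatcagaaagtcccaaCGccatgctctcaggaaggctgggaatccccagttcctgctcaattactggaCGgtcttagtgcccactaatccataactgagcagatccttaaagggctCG
Nmur2, upstream of the start, chr11:56041011-56041210: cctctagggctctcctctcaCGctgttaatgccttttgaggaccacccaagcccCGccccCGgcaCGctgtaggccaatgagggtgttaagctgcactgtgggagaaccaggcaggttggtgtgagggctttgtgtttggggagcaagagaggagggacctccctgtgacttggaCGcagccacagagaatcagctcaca

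The Smad1 run holds 8 CpG sites and no masked repeat. It read 76.3% and 85.2% in ASCs, against 18.6% and 18.5% in ESCs and 0% and 3.45% in EpiSCs, where 37 observations behind the 0 allow up to 8.11%. The Nmur2 run holds 5 CpG sites, and read 28.6% and 64.1% in ASCs, against 0% and 1.92% in ESCs and 0% and 3.03% in EpiSCs. The limits that the counts of 0 allow at Nmur2 are 12% in ESC replicate 1 and 10.7% in EpiSC replicate 1.

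**Figure D2:**
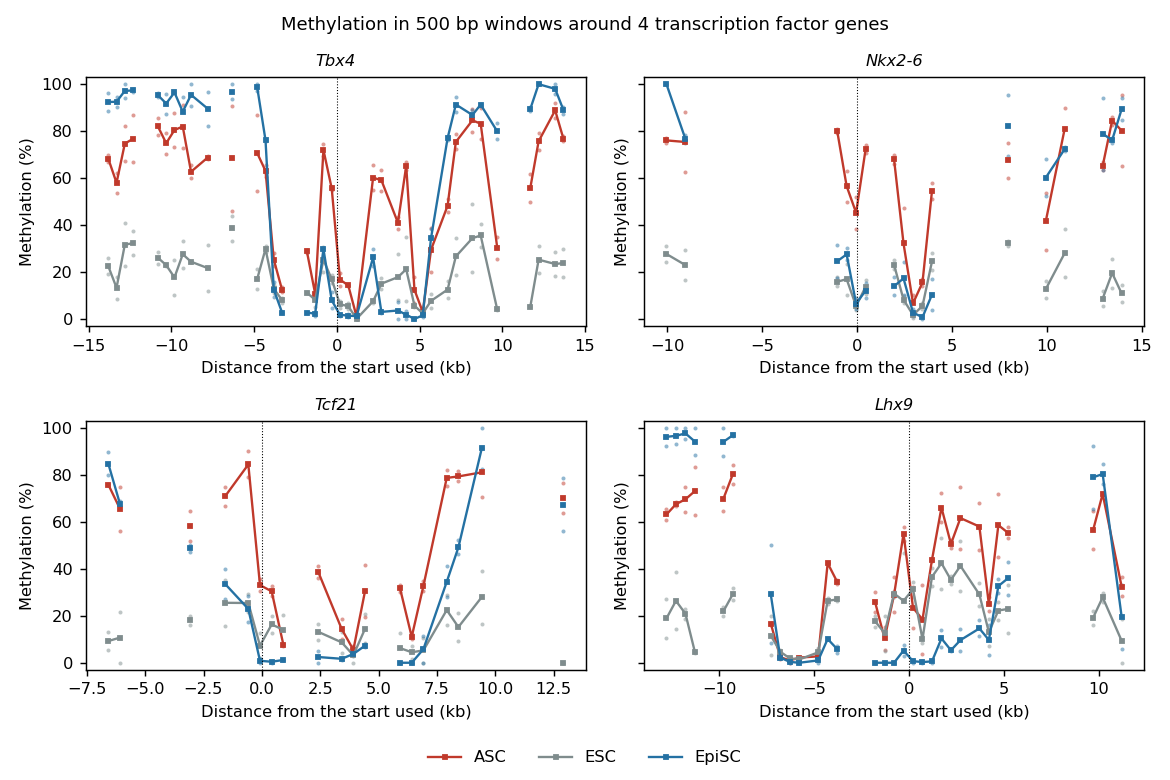
Methylation level (%) in windows of 500 bp against distance from the start used (kb, positive into the gene) at the 4 transcription factor genes. Lines and squares are means of 2 libraries and dots single libraries. Windows with fewer than 10 observations in any library are left out. Lines bridge a single missing window and break at longer gaps. Within the low stretch the EpiSC line stays low while the ASC line rises and falls, and beyond it the EpiSC line lies mostly above the ASC line.

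**Figure D3:**
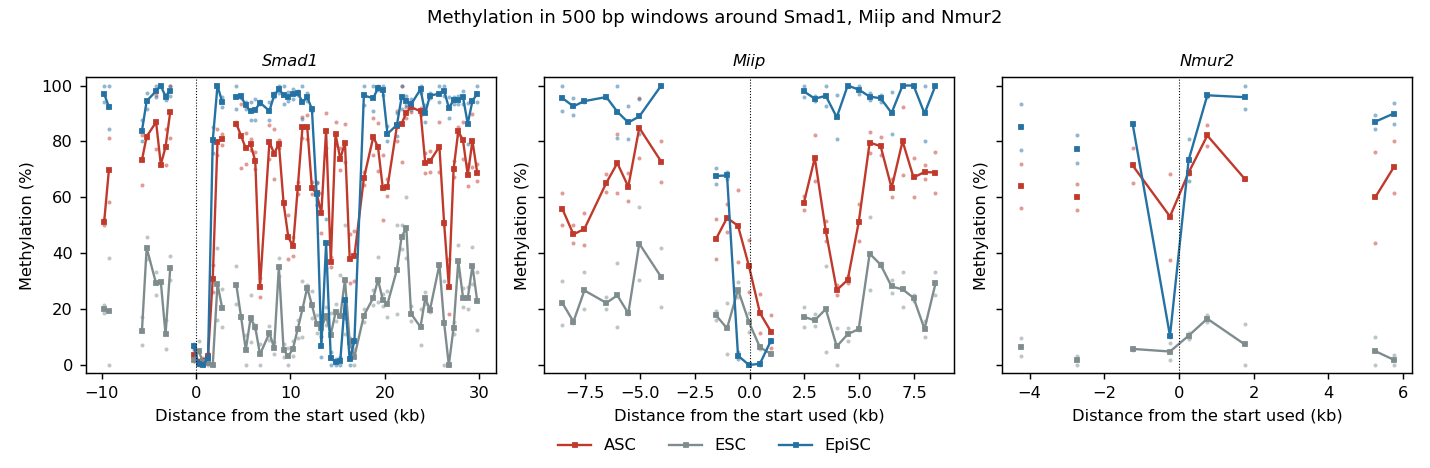
The same plot for Smad1, Miip and Nmur2. EpiSCs dip at the Smad1 start together with ASCs and again around the intron tile, where ASCs stay between 36.9% and 83.9%, and at Nmur2 in 1 window only.

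Inside the low stretches ASC methylation was uneven. At Tbx4 the window just before the start, with 10 CpG sites, averaged 55.6% in ASCs and 7.92% in EpiSCs. The next window, which holds the coding start and 36 CpG sites, averaged 16.7% and 1.74%. A window in the first intron with 14 CpG sites read 1.04% in ASCs and 1.16% in EpiSCs, and the next window with a value averaged 60.2% in ASCs and 26.2% in EpiSCs. At Lhx9 4 windows around its upstream starts averaged between 0.980% and 2.72% in ASCs. The window from 138847501 to 138848000, which lies between them, had too few reads for a value. At Smad1 all 8 windows of the stretch were higher in ASCs than in EpiSCs by at least 20 points, as were 10 of 15 at Tcf21, 12 of 21 at Lhx9, 6 of 9 at Nkx2-6 and 7 of 16 at Tbx4. Over all windows of the genome with a value this share was 0.280%. The loci were chosen on this contrast and the stretches bounded by low EpiSC levels, so nothing is read from these counts.

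Pooled over the 7 stretches, median ASC levels were lower in windows with more CpG sites, but not in every gene. Of the windows under 20% in EpiSCs, the 12 with 1 to 9 CpG sites had a median of 47.0% in ASCs and 4.38% in EpiSCs. The 30 windows with 10 to 19 sites had medians of 36.5% and 3.55%, and the 17 with 20 or more had medians of 14.3% and 1.18%. An excess of at least 20 points in ASCs was seen in 11 of 12, 21 of 30 and 3 of 17 of these windows. Over all windows of the genome under 20% in EpiSCs the same excess was found in 15.0%, 4.82% and 0.214%. The higher shares in the 7 loci follow from how they were chosen, and nothing is read from them. ESC medians in the 7 stretches were 14.2%, 13.4% and 8.14%. By gene, the ASC medians of Tbx4 were 59.1%, 20.6% and 13.3% and those of Lhx9 54.9%, 38.5% and 10.3%, and Nkx2-6, with none of the sparsest windows, had 54.5% and 11.1%. At Tcf21 they were 32.7%, 31.1% and 14.4%. Smad1 had 38.1% for 1 to 9 sites and 73.8% for 10 to 19, from 3 windows each, and Miip 12%, 34.2% and 35.4% from 1, 2 and 1 windows. The first value of Tcf21 is also 1 window, as is all of Nmur2, so no order is read from these genes. Windows of 1 locus are neighbours and are not independent, and a window with few CpG sites also has fewer observations.

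**Figure D4:**
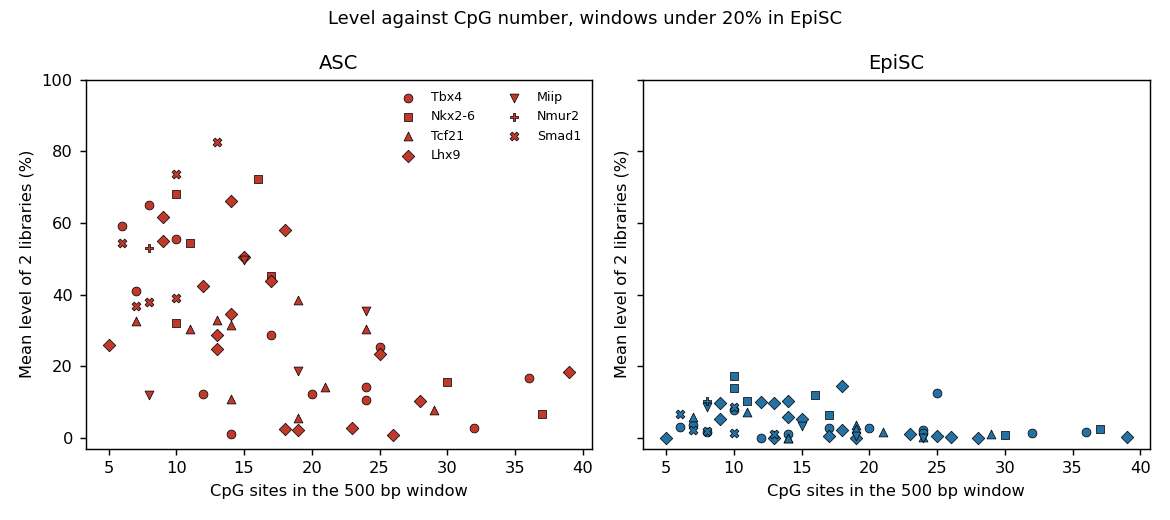
Mean level of 2 libraries (%) in ASCs (left) and EpiSCs (right) against the number of CpG sites per window of 500 bp, for the windows of the low stretches under 20% in EpiSCs. Symbols mark genes. In ASCs windows with fewer than 20 sites spread up to 82.7%, while windows with 20 or more sites lie at or below 35.4%.

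Of 317 windows with a value in all 7 loci, 113 were lower in ASCs than in EpiSCs by at least 20 points and 46 higher by at least 20 points. Over all such windows of the genome these shares were 52.2% and 0.280%. By gene, the windows higher and lower by at least 20 points numbered 7 and 29 at Tbx4, 8 and 46 at Smad1, 2 and 20 at Miip and 1 and 10 at Nmur2. The order turned at Nkx2-6 with 6 and 1, Tcf21 with 10 and 0 and Lhx9 with 12 and 7. Over 2 kb tiles these counts were 3 and 3 at Nkx2-6, 4 and 1 at Tcf21 and 4 and 5 at Lhx9. At Nmur2 1 window of 19 and at Miip 4 of 32 were higher in ASCs at all. The loci were picked on this contrast, so nothing is read from these counts.

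Against ESCs, 38 of the 68 windows with enough reads to be tested were called higher in ASCs, a share below the 68.4% of all windows, with 17 of 22 at Smad1, 9 of 17 at Tbx4 and 2 of 13 at Lhx9. No window was called lower in ASCs than in ESCs by the quasi-binomial test. At an unadjusted p under 0.05 there were 0 by this test, 0 by limma on M values and 2 by Fisher's exact test, and all 3 tools made 0 calls. The median ESC level of windows with a value in these loci was 19.6%, under the 20 points a call needs. Many windows therefore could not be called lower, and nothing is read from this. Of the 107 tiles tested, 93 were called for ASCs above ESCs, near the 91.1% of all tiles. EpiSCs were called higher than ESCs in 35 windows, where 81.2% of all windows were, and in 83 tiles, where 96.5% of all tiles were.

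Calls for EpiSCs below ESCs were rare in the genome, at 15 of 173282 windows tested (0.00866%). Of these 15, 4 were among the 68 windows here. A call needs a drop of 20 points, and the median ESC level over windows with a value was 18.75%. Many windows therefore could not give such a call. At Lhx9 the window from 138841001 to 138841500 read 32.7% and 40.5% in ESCs and 1.16% and 0% in EpiSCs. The ASC libraries read 43.5% and 44.2% there. A further 2 windows of Lhx9 differed by -30.0 and -21.1 points. At Miip the window from 147869001 to 147869500 read 24.2% and 29.8% in ESCs and 4.55% and 2.17% in EpiSCs. Without EpiSC replicate 2 the count was 2. These windows are a description, since Lhx9 was chosen on this contrast and the Miip window lies in the promoter chosen for being lower in EpiSCs than in ASCs. Among tiles, 4 of 445422 in the genome were called lower in EpiSCs (0.000898%). Of these 4, 2 lie at Lhx9, and 1 of the 2 is the tile that chose the gene. In that tile, from 138842001 to 138844000, ASCs averaged 21.8% and ESCs 21.9%, a gap of -0.180 points, while EpiSCs averaged 0.720%.

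Related genes were taken from lists of the gene families. Of 61 genes from the families of the 7, 55 had a promoter that could be tested, and 29 of these were under 10% in all 6 libraries. ASCs were called lower than EpiSCs at 7 of the 55, where 34.5% of all promoters were, and higher at 0, where 0.228% were. For the higher direction 1 had an unadjusted p under 0.05 by the quasi-binomial test, 3 by limma on M values and 3 by Fisher's exact test, and all 3 tools made 0 calls. With the start of the 5′-most transcript 1 promoter, that of Hand1, was called higher. The median difference was -0.593 points over the 55 and -11.7 points over all promoters. Compared with ESCs, ASCs were called higher at 4 of the 55, where 35.2% of all promoters were.

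Of 13 T-box promoters tested, 1 was called, that of the pituitary factor Tbx19, at -22.0 points (adjusted p = 0.00147). Tbx21, a factor of T helper cells, differed by -14.1 points, and on the positive side Tbx18 differed by 6.12 points and Tbx15 by 2.57 points. Among 13 NK homeobox promoters Nkx6-3 was called at -33.6 points (adjusted p = 0.000517), and Nkx2-9 (-19.8) and Nkx2-5 (6.45 points) were not.

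Among 11 LIM homeobox promoters Isl1, a factor of motor neurons and heart progenitors, was called at -51.9 points. The ASC libraries were at 0% and 2.24%, the EpiSC libraries at 53.2% and 52.9% (adjusted p = 4.07e-08), in the other direction from Lhx9. The next were Lmx1b at -3.26 points, Lhx8 at 1.97 points and Lhx2 at 1.3 points.

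Among 10 bHLH promoters Twist2 and Scx, factors of mesenchyme and tendon, were called at -30.9 and -28.4 points. Hand1, a factor of heart and trophoblast, was the family promoter with the largest positive difference. It read 19.1% and 17.1% in ASCs, against 10.1% and 4.35% in ESCs and 2.21% and 2.55% in EpiSCs. Its difference of 15.7 points passed the p threshold (adjusted p = 0.000349) but not the 20 points a call needed. Msc differed by 6.43 points.

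None of the 6 Smad promoters tested was called in either direction. Smad5 differed by -6.90 points and Smad4 by -0.593 points, and Smad9 by 5.56 points and Smad6 by 0.238 points. Both neuromedin U promoters tested were called lower in ASCs, with -45.1 points at the peptide gene Nmu (adjusted p = 3.28e-07) and -28.1 points at the receptor gene Nmur1 (adjusted p = 0.000567), opposite to Nmur2.

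**Figure D5:**
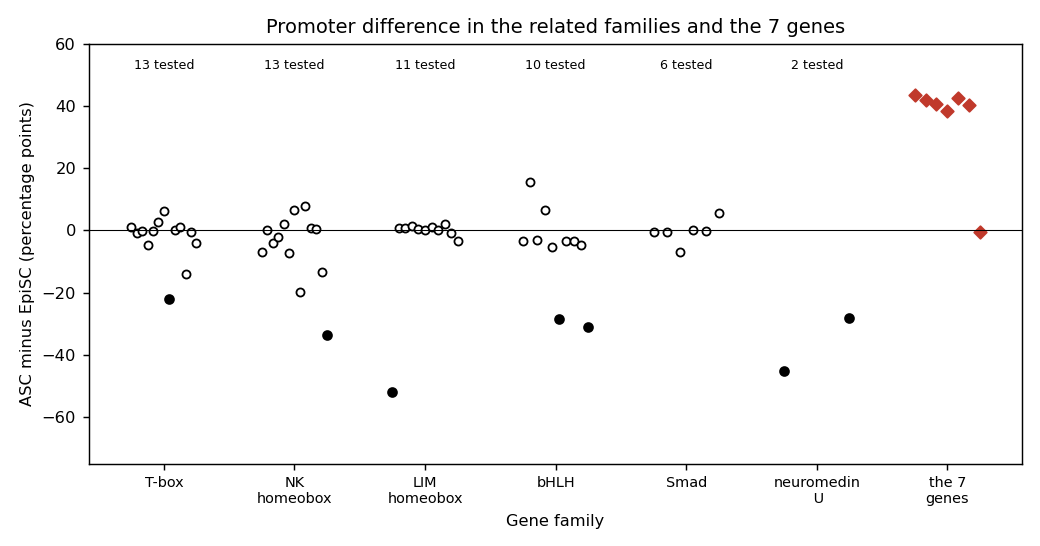
Difference of mean promoter levels, ASCs minus EpiSCs, in percentage points. Circles are promoters of related genes, filled where called, and diamonds the 7 genes. Called circles lie between -51.9 and -22.0 points, and 6 of the 7 diamonds lie between 38.3 and 43.7 points.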

How the data were processed

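According to the study's methods, PBAT (post-bisulfite adaptor tagging) libraries, sequenced from 1 end, were trimmed with Trim Galore, aligned to GRCm38 with Bismark (0.16.3) and deduplicated, and MethPipe merged both strands of each CpG. The tables the authors deposited give, per library and CpG, the methylation level as a fraction and the coverage as a raw read count, with no normalization. Fraction times coverage lay within 0.000115 of a whole number, so methylated reads were recovered. All 21327445 listed sites on chromosomes 1 to 19 and X fell on a CpG of GRCm38. Conversion controls were not analysed here.

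Regions were promoters, windows of 500 bp and non-overlapping tiles of 2 kb. The start was that of the transcript with the best principal-isoform tag in GENCODE M21, ties going to the lowest transcript number, the window in which the genes had been chosen. This departs from the plan, which named transcript length. Length moves the Tbx4 start and was run as an alternative added after the data were seen. A quasi-binomial model with 1 term for group was fitted to all 6 libraries, with dispersions moderated by limma 3.58.1 (R 4.3.3) and not below 1. It was also run on simulated promoters. Their spread was milder than the mean spread between replicates here, so that run does not vouch for the p-values. The p-values rest on the spread between 2 libraries a group, moderated over all regions. Moderation carried 9.43 prior degrees of freedom for promoters, 5.97 for windows and 145 for tiles. The spread used at a region was therefore largely that of other regions. Replicate numbers did not pair libraries (correlations of same-numbered deviations -0.00451 to 0.00169). The 7 genes and the family lists were chosen with earlier results of these data known. The genes named were the 7, for each family the 2 largest differences in each direction and any promoter called higher in ASCs, the 3 promoters just below the 7 and the 5 most alike. Of these, 1 family gene is not reported here. For the printed stretches, runs of 200 bases with the most CpG sites that avoid annotated UTRs (for the sparse windows all exons) were taken from windows with at least 20 observations in every library, using the RefSeq sequence of GRCm38. Alternatives were other minimums, thinned libraries, leaving out libraries, a replicate block, limma on M values, Fisher's exact test, other promoter windows and other starts.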

Additional observations from a re-analysis of the deposited data

How the results depend on the processing

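Thinning the libraries, limma on M values, Fisher's exact test and the replicate block kept every count of calls within 1.5 times its value in the report, with 5 and 1 promoters called, 38 and 35 windows and 93 tiles under the block. Numbers shared by replicates did not pair the libraries. A minimum of 100 observations left 1 promoter (Miip), 6 windows and 49 tiles to test. It gave 1 promoter higher in ASCs than in ESCs, 0 called between EpiSCs and ESCs, 1 higher in ASCs than in EpiSCs by 20 points, 4 family promoters lower in ASCs than in EpiSCs, 0 windows in each contrast (0 lower in EpiSCs) and 35 tiles. A minimum of 20 observations gave 144 windows higher in ASCs and 129 higher and 7 lower in EpiSCs, against 38, 35 and 4, because 189 windows could be tested. In windows reaching 500 bp to either side of the start, 2 promoters were called for ASCs over ESCs and 2 between EpiSCs and ESCs, and 4 exceeded EpiSCs by 20 points. With the 5′-most start 0 were called between EpiSCs and ESCs, 4 exceeded EpiSCs by 20 points, and 1 family promoter was called higher in ASCs. The cause of these changes was not tested.

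Leaving out 1 library gave 4 to 5 promoters higher in ASCs than in ESCs, 0 to 1 called between EpiSCs and ESCs (0 without EpiSC replicate 1), and 2 to 5 windows lower in EpiSCs than in ESCs (2 without EpiSC replicate 2). Signs turned at small differences. Lhx9 in ASCs minus ESCs ranged from -8.37 to 16.4 points without 1 library and was -1.1 with the 5′-most start. Smad1 in the window reaching 500 bp either way was -1.46 points in ASCs minus ESCs and -1.86 in EpiSCs minus ESCs. Tbx4 in EpiSCs minus ESCs was 16.6 points both with the 5′-most start and with ties broken by transcript length, and its ASC minus EpiSC difference was 10.6 points there instead of 43.7. Length was the planned rule, and the tie by lowest transcript number used here was adopted later, because the genes had been chosen in that window. Tcf21 in EpiSCs minus ESCs ranged from -11.4 to 1.24 points without 1 library. Of the values of single genes under all alternatives, 250 counted as unchanged, 8 reversed, 9 lost and 1 gained a call. A further 8 differences without a test moved by more than the spread between replicates. Unchanged means, against ESCs, the same direction and side of the threshold. For ASCs minus EpiSCs it means a move smaller than the larger replicate SD. Smad1 therefore counted as unchanged when it turned from -0.640 to 1.23 points without ASC replicate 1. Depth limits the windows most, since 317 of the 580 in the loci had a value and 68 could be tested.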
